A study of Mus musculus with 12 samples.

Results

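The 42 genes described here carry the signal of the T cell receptor from the CD3 chains at the cell surface to the NFAT and NF-kappaB branches inside the cell, together with the enzymes and adaptors that restrain it. They were taken as a list of gene symbols, chosen with earlier results of these data known. Each of the 42 had 1 entry among the 23352 symbols in the files. The RNA came from regulatory T cells (Tregs), the Foxp3-expressing cells that restrain immune responses. The mice were C57BL/6 females, and cells were sorted from their spleens and lymph nodes. KO Tregs were from mice carrying Ezh2fl/fl and HET Tregs from mice carrying Ezh2fl/+, so that Cre can delete both copies of Ezh2 in KO and a lone copy in HET cells. Ezh2 is the enzyme that methylates histone H3 at lysine 27. Both genotypes also carried Foxp3YFP-Cre over Foxp3WT. Each was sorted into CD62Llo Tregs, the activated or effector fraction that has lost the lymph node homing receptor, and CD62Lhi Tregs, the resting fraction. The groups were KO CD62Llo (3 libraries), HET CD62Llo (3 libraries), KO CD62Lhi (3 libraries) and HET CD62Lhi (2 libraries). The submitters' label marks HET CD62Lhi replicate 3 as removed for low read numbers, and it was not used here. In it 9 of the 42 genes were above 0.

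The model has limits that bear on every value. Foxp3 is on the X chromosome, so these females carried 1 Cre-bearing and 1 wild-type Foxp3 allele, and the labels used here do not say whether the sort took only YFP-positive cells. Nor do they name the mice behind each library, so the p-values measure the spread between these libraries, which may in part be technical. Ezh2 itself was listed at 12.5, 16.8 and 14.4 FPKM in KO CD62Llo and 18.2, 17.8 and 20.5 FPKM in HET CD62Llo Tregs. CD62Lhi Tregs had 9.15, 11.5 and 11.02 FPKM in KO and 12.7 and 12.5 FPKM in HET. Ezh2 was lower in each KO group without overlap, but neither difference passed the test described below (adjusted p = 0.113 in CD62Llo and 1 in CD62Lhi Tregs). A gene-level value does not separate the floxed exons from the rest of the transcript, so it does not check the genotype. Foxp3, the factor that defines Tregs, stood between 75.9 and 96.8 FPKM in the 11 libraries, and Cd3e and Cd4 were at 182 FPKM or more in all of them.

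Expression was measured by single-end poly(A) RNA-seq and deposited as FPKM, which scales reads to transcript length and to the number of mapped reads, so levels can be set side by side between genes. Sequencing depth, estimated from what 1 read is worth in each library, ran from about 12100000 reads in KO CD62Llo replicate 1 to about 48500000 in KO CD62Lhi replicate 1. Sums of markers of several other cell types moved with the fractions. The summed FPKM of 8 CD8 T cell and NK cell markers was 15.4 to 22.8 in KO CD62Llo, 16.2 to 19.2 in HET CD62Llo, 36.5 to 45.5 in KO CD62Lhi and 45.8 to 53.7 in HET CD62Lhi libraries. That of 8 B cell markers was 27.6 to 67.7 in KO CD62Llo, 24.3 to 36.6 in HET CD62Llo, 81.0 to 139 in KO CD62Lhi and 84.3 to 103 in HET CD62Lhi libraries. The 11 measured myeloid markers summed to 39.2 to 306 in KO CD62Llo, 58.2 to 132 in HET CD62Llo, 20.7 to 30.8 in KO CD62Lhi and 20.1 to 45.0 in HET CD62Lhi libraries. Among them Lyz2 alone read 25.6 to 219 FPKM in KO CD62Llo and 40.1 to 75.2 FPKM in HET CD62Llo libraries, and did not exceed 12.9 FPKM in CD62Lhi libraries. At a median FPKM of at least 1 stood 4 of the 8 CD8 T and NK markers, 7 of the 8 B cell markers and 5 of the 11 myeloid markers, while Ncr1 did not exceed 0.484 FPKM and S100a8 did not exceed 0.818 FPKM in any library. Of the CD8 T and NK list, Cd8b1 alone read 8.66 to 33.0 FPKM over the 11 libraries. Klrb1c went against the sum, at 1.03 to 1.65 FPKM in KO CD62Llo and 1.53 to 3.97 FPKM in HET CD62Llo libraries. In CD62Lhi libraries Klrb1c read 0.266 to 0.317 FPKM in KO and 0.315 to 0.395 FPKM in HET. The 7 Treg markers, of which Cd3e and Cd4 are also members, summed to 1050 to 1170 in KO CD62Llo, 1210 to 1370 in HET CD62Llo, 892 to 917 in KO CD62Lhi and 905 to 992 in HET CD62Lhi libraries. The 8 stromal and endothelial markers summed to 53.0 to 58.0 in KO CD62Llo, 39.9 to 43.2 in HET CD62Llo, 70.4 to 81.1 in KO CD62Lhi and 69.4 to 74.6 in HET CD62Lhi libraries. Pecam1 accounted for 36.8 FPKM or more of that sum in every library, while Pdgfra was listed at 0 and Cdh5 did not exceed 0.0739 FPKM. The 5 measured red cell and platelet markers summed to 3.14 to 112 in KO CD62Llo, 17.0 to 146 in HET CD62Llo, 6.81 to 227 in KO CD62Lhi and 97.5 to 109 in HET CD62Lhi libraries, so these ranges overlapped. The part of these cells in the results below was not tested, and in sorted bulk RNA fewer cells of a type and less RNA per cell cannot be told apart.

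Signalling begins when Lck, a Src family kinase held on the CD4 co-receptor, phosphorylates the CD3 and zeta chains. ZAP-70 then docks on those chains and phosphorylates the scaffolds LAT and SLP-76 (the product of Lcp2), on which phospholipase C gamma 1 and Tec family kinases assemble. The products of phospholipase C lead on the calcium side to calcineurin and NFAT, and on the diacylglycerol side to RasGRP1 and Ras and to protein kinase C theta, Bcl10 and Malt1. Tregs need receptor signals to become effector cells, and the same signals raise inhibitors that damp the pathway.

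The promoters below are shown because they belong to pairs of neighbours whose RNAs are compared in the results, Cd3g with Cd3d and Txk with Tec, and to Zap70, the kinase that docks on the phosphorylated chains. They are RefSeq windows on GRCm38.p6 from 250 bases before to 50 bases after the annotated start, written 5′ to 3′ in the gene's direction. Capitals mark the core of NFAT sites, GGAAA or its reverse complement, and the CACCC box bound by KLF and Sp factors, CCACCC or its reverse complement. Cd3g lies at chr9:44980382-44980681, minus strand, Cd3d at chr9:44981536-44981835, plus strand, Txk at chr5:72752728-72753027, minus strand, Tec at chr5:72868399-72868698, minus strand and Zap70 at chr1:36761548-36761847, plus strand.
Cd3g: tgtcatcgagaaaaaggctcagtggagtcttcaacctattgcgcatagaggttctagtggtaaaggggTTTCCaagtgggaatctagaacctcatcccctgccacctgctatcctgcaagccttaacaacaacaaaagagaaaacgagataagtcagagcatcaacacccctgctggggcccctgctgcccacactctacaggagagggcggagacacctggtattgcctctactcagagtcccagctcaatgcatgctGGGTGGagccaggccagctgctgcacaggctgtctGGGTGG
Cd3d: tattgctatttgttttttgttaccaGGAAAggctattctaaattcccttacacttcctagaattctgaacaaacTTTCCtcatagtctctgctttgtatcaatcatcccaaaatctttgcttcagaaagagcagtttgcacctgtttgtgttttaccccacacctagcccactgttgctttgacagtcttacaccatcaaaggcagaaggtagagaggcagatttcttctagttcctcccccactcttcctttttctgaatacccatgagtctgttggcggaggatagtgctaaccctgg
Txk: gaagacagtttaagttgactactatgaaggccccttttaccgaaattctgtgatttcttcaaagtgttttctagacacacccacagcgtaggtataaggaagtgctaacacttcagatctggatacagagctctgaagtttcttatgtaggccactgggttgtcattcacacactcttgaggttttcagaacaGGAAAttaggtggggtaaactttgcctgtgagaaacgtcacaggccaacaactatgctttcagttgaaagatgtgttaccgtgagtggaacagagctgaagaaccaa
Tec: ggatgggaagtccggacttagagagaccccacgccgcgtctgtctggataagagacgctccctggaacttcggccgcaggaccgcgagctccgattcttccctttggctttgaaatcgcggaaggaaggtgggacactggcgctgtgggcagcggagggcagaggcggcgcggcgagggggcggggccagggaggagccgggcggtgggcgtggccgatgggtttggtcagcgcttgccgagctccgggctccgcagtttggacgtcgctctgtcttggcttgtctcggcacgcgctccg
Zap70: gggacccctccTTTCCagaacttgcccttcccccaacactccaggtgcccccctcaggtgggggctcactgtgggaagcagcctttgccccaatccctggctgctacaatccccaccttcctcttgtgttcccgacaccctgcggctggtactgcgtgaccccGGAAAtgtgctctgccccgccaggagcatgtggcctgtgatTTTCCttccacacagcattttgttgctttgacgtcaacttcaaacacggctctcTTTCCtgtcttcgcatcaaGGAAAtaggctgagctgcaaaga
The window shown for Zap70 held 5 NFAT cores, that of Cd3d 2, those of Cd3g and Txk 1 each and that of Tec 0. The other listed Zap70 windows, from chr1:36764265 and chr1:36778734, held 0 each, and the other listed Txk window held 2. The Tec window held 33 CpG pairs against 4 in that of Txk, and the median over all 32851 listed mouse promoters was 7. Of the 34 members with a listed promoter, 27 held GGAAA in any of their listed promoters, and 61.3% of all single promoters held it. Counted in the same way, 17 members held CCACCC (31.5% of single promoters) and 3 the forkhead letters TGTTTAC (3.65%). The ETS letters CCGGAAG were held by 1 member (8.86%) and the AP-1 letters TGANTCA by 0 (7.81%). Members with several promoters had more windows to match, so the counts and the percentages are not of the same unit. Both strands were searched, several members had more than 1 listed promoter, and the promoters shown were chosen with the expression values known. A match is a string of letters and not a site. Cd2, Cd4, Cd6, Sla, Sh2d1a and Sh2d2a were among the members without a listed promoter.

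All 42 genes passed the filter of at least 1 FPKM in at least 2 libraries, and their levels spanned a wide range. By the median over the 11 libraries, Cd3g, a chain of the CD3 complex, was the highest at 561 FPKM, ahead of the scaffold Lat at 503 FPKM, the adhesion receptor Cd2 at 449 FPKM and Lck at 428 FPKM. The lowest were the Ras exchange factor Sos1 at 4.38 FPKM, Tec at 6.27 FPKM and the thymocyte adaptor Themis at 12.5 FPKM. Lat read 532, 566 and 470.3 FPKM in KO CD62Llo and 579.5, 430.0 and 440.3 FPKM in HET CD62Llo Tregs. Its CD62Lhi levels were 518, 502 and 431 FPKM in KO and 533 and 479.6 FPKM in HET. Its groups overlapped in every comparison. The ranges of Cd3g, Lat, Cd2 and Lck over libraries overlapped. Within libraries, Cd3g was above Lck in every one and above Cd2 in all but HET CD62Lhi replicate 2. The order of Lat, Cd2 and Lck changed between libraries. Cd3g led these in every CD62Llo library, whereas in HET CD62Lhi libraries the mean of Lat was 506 ± 37.9 FPKM and that of Cd3g 494 ± 10.1 FPKM (SD, n = 2).

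**Figure D1:**
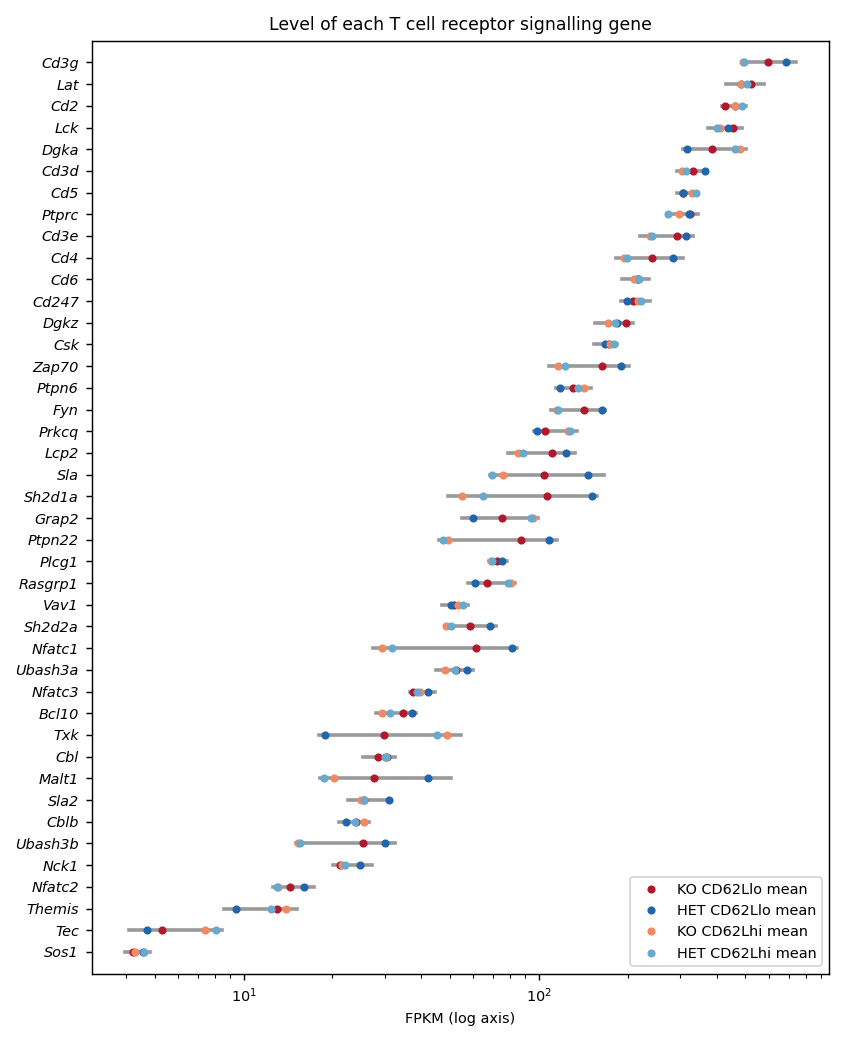
Level of each of the 42 genes in FPKM on a log axis, ordered by the median over 11 libraries; grey bars span the lowest to the highest library and dots are group means. Cd3g lies at the top with a median of 561 FPKM and Sos1 at the bottom with 4.38 FPKM, and the wide bars of Nfatc1, Sh2d1a, Ptpn22, Malt1 and Txk are those with separate CD62Llo and CD62Lhi means.

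The fraction comparison asked which of these genes differ between the effector and the resting Treg fraction. In KO Tregs 14 members rose and 6 fell in the CD62Llo fraction, and 22 did not pass the test. In HET Tregs 17 rose, 7 fell and 18 did not pass (limma on log2(FPKM + 1), Benjamini-Hochberg adjusted p under 0.05 over 11431 genes). Over all tested genes, 11.9% rose and 4.26% fell in KO (16.2% together), and 18.8% rose and 8.88% fell in HET (27.7% together). The CD62Llo libraries were all above the CD62Lhi libraries for 16 members in KO (24.3% of all genes) and 23 in HET (36.1%). They were all below for 6 members in KO (10.5% of all genes) and 10 in HET (17.9%). The median change of the members was 0.089 on the log2 scale in KO and 0.12 in HET, against 0.050 in KO and 0.068 in HET over all genes. Each of the 20 members called in KO was called in HET with the same sign, 4 were called in HET alone (Themis, Nfatc2, Ptprc and Sla2) and 18 in neither. The KO and HET fraction comparisons share no library, though they share the estimate of the spread. With the median of each library set equal, which lowers the HET change of the median gene by 0.10 and the KO change by 0.079, 8 members rose and 7 fell in KO and 13 rose and 12 fell in HET.

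**Figure D2:**
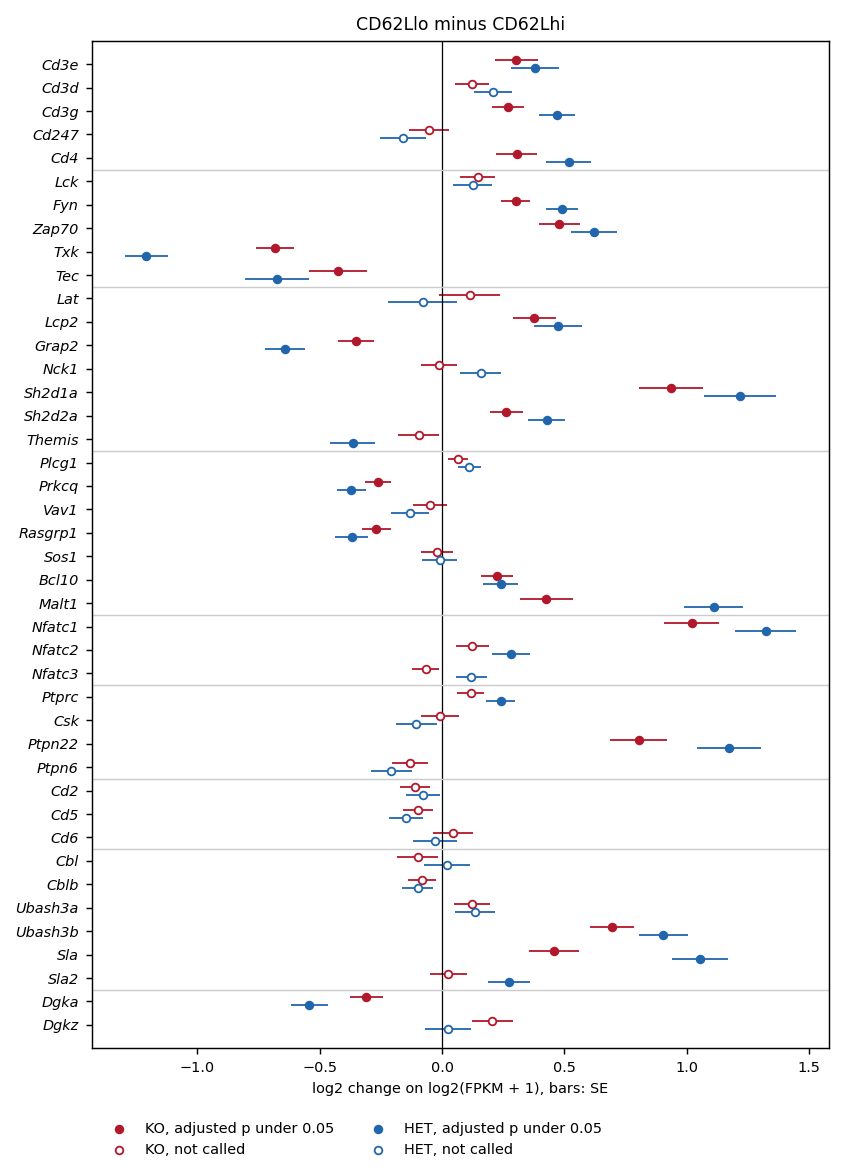
Log2 change of each member in CD62Llo against CD62Lhi Tregs, on log2(FPKM + 1), in KO (red, upper point) and HET (blue, lower point), grouped by role; bars are SE and filled points have an adjusted p under 0.05. Nfatc1, Sh2d1a, Ptpn22 and Ubash3b lie far to the right in both genotypes, Txk lies far to the left, and Cd2, Cd5, Cd6, Cbl and Csk lie near 0.

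Among the receptor chains, Cd3e, Cd3g and Cd4 rose in CD62Llo Tregs of both genotypes, while Cd3d and Cd247 did not pass the test in either. The CD3 gamma chain transcript Cd3g read 578, 644 and 561 FPKM in KO CD62Llo and 652, 741 and 665 FPKM in HET CD62Llo Tregs. In CD62Lhi Tregs it stood at 486, 498 and 490.1 FPKM in KO and 487 and 501 FPKM in HET. Every CD62Llo library lay above every CD62Lhi library. Its log2 change, given with its SE here and throughout, was 0.27 ± 0.066 in KO (adjusted p = 0.0214) and 0.47 ± 0.074 in HET (adjusted p = 0.00135). Cd4, the co-receptor that brings Lck to the complex, read 233, 263 and 226 FPKM in KO CD62Llo and 279.7, 308 and 264 FPKM in HET CD62Llo Tregs. For CD62Lhi Tregs the values were 190.2, 201 and 192 FPKM in KO and 182 and 214 FPKM in HET. Its fractions did not overlap in either genotype, and its log2 change was 0.30 ± 0.083 in KO (adjusted p = 0.035) and 0.52 ± 0.093 in HET (adjusted p = 0.0029). Cd3e, which encodes the epsilon chain, read 280.3, 331 and 272 FPKM in KO CD62Llo and 314, 333 and 296 FPKM in HET CD62Llo Tregs. The CD62Lhi libraries stood at 238, 256 and 219 FPKM in KO and 234 and 249 FPKM in HET. Its log2 change was 0.30 ± 0.088 in KO (adjusted p = 0.0435) and 0.38 ± 0.098 in HET (adjusted p = 0.018). Cd3d, separated from Cd3g by 1354 bases and transcribed from the opposite strand, changed by 0.12 ± 0.070 in KO (adjusted p = 0.282) and 0.21 ± 0.078 in HET (adjusted p = 0.0756). It read 321.2, 370.4 and 308.5 FPKM in KO CD62Llo and 366.5, 368.6 and 359.1 FPKM in HET CD62Llo Tregs. Its CD62Lhi values were 292.4, 324.3 and 299.9 FPKM in KO and 318.1 and 312.7 FPKM in HET. The Cd3d fractions overlapped in KO and were apart in HET, where Cd3d was called higher with the replicate number as a block. The zeta chain transcript Cd247 read 203, 225 and 195 FPKM in KO CD62Llo and 201, 203 and 190.2 FPKM in HET CD62Llo Tregs. CD62Lhi Tregs had 221, 237 and 190.4 FPKM in KO and 225 and 218 FPKM in HET. The KO fractions overlapped, and the HET CD62Llo libraries lay below the HET CD62Lhi ones. Its change was -0.054 ± 0.083 in KO (adjusted p = 0.723) and -0.16 ± 0.093 in HET (adjusted p = 0.237). The KO calls of Cd3e, Cd3g and Cd4 were each lost with library medians set equal, and without KO CD62Llo replicate 2 or KO CD62Lhi replicate 1 or 3. Leaving out KO CD62Lhi replicate 2 also ended those of Cd3g and Cd4, and KO CD62Llo replicate 1 those of Cd3e and Cd4. The KO call of Cd3e was lost as well without HET CD62Llo replicate 1 or 2 or HET CD62Lhi replicate 1 or 2. Its HET call was lost without HET CD62Llo replicate 2 or HET CD62Lhi replicate 1 or 2.

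Of the 5 kinases, Zap70 and Fyn rose, Txk and Tec fell, and Lck did not pass the test in either genotype. Zap70, whose product binds the phosphorylated receptor chains, read 162, 178 and 149.6 FPKM in KO CD62Llo and 197, 201 and 171 FPKM in HET CD62Llo Tregs. Its CD62Lhi levels were 123, 119 and 108 FPKM in KO and 123 and 123 FPKM in HET. The fractions were apart in both genotypes, and the log2 change was 0.48 ± 0.083 in KO (adjusted p = 0.00432) and 0.62 ± 0.093 in HET (adjusted p = 0.00102). Fyn, a Src family kinase like Lck, read 139.8, 154 and 134 FPKM in KO CD62Llo and 167, 168 and 157 FPKM in HET CD62Llo Tregs. In CD62Lhi Tregs it stood at 118, 118 and 109.9 FPKM in KO and 117 and 116 FPKM in HET. The fractions did not overlap, and the change was 0.30 ± 0.059 in KO (adjusted p = 0.00757) and 0.49 ± 0.066 in HET (adjusted p = 0.00058). The Fyn share of the summed Lck and Fyn FPKM was 23.7% to 24.0% in KO CD62Llo, 26.8% to 27.9% in HET CD62Llo, 21.6% to 22.8% in KO CD62Lhi and 22.3% to 22.7% in HET CD62Lhi libraries. Lck read 449, 488 and 424 FPKM in KO CD62Llo and 454, 433 and 424 FPKM in HET CD62Llo Tregs. For CD62Lhi Tregs the values were 430.4, 428 and 373 FPKM in KO and 408 and 393 FPKM in HET. Its change was 0.14 ± 0.071 in KO (adjusted p = 0.213) and 0.13 ± 0.080 in HET (adjusted p = 0.273).

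Txk, a Tec family kinase of T cells also called Rlk, had the lowest log2 change of the 42 genes in both genotypes. It read 29.3, 28.7 and 31.5 FPKM in KO CD62Llo and 17.97, 19.7 and 19.1 FPKM in HET CD62Llo Tregs. The CD62Lhi libraries stood at 46.9, 54.5 and 44.6 FPKM in KO and 43.1 and 46.9 FPKM in HET. All CD62Llo libraries lay below all CD62Lhi libraries, and among the CD62Llo libraries the HET ones were the lowest. The change was -0.68 ± 0.078 in KO (adjusted p = 0.000469) and -1.21 ± 0.087 in HET (adjusted p = 2.1e-05). Its relative Tec, 2938 bases away on chromosome 5 and transcribed from the same strand, read 4.87, 4.69 and 6.27 FPKM in KO CD62Llo and 4.09, 4.48 and 5.59 FPKM in HET CD62Llo Tregs. CD62Lhi Tregs had 7.59, 6.84 and 7.73 FPKM in KO and 8.47 and 7.68 FPKM in HET. The change was -0.42 ± 0.12 in KO (adjusted p = 0.0358) and -0.67 ± 0.13 in HET (adjusted p = 0.00433). The Tec share of the summed Tec and Txk FPKM was 14.0% to 16.6% in KO CD62Llo, 18.6% to 22.7% in HET CD62Llo, 11.1% to 14.8% in KO CD62Lhi and 14.1% to 16.4% in HET CD62Lhi libraries. The KO call of Tec was lost in 10 of 21 alternatives. These include leaving out KO CD62Llo replicate 1 or 2, HET CD62Llo replicate 2, any KO CD62Lhi library or either HET CD62Lhi library.

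**Figure D3:**
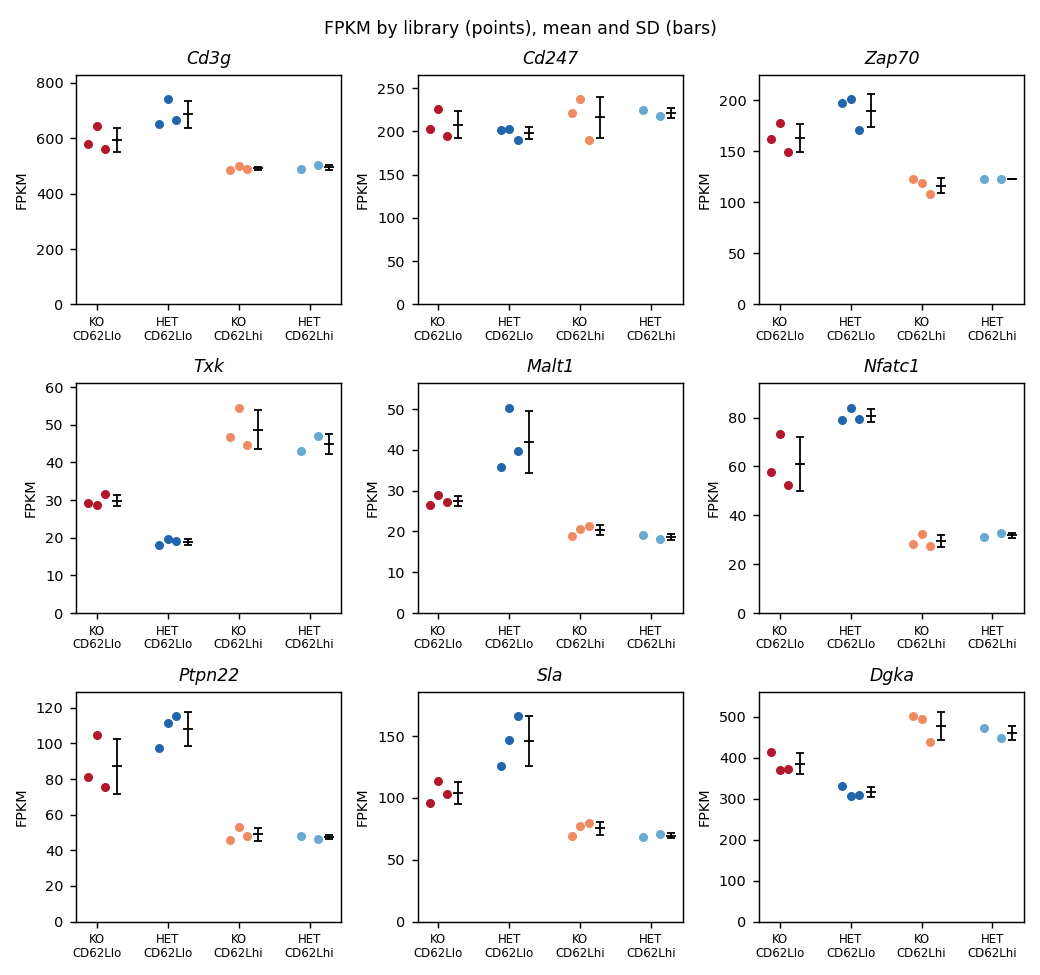
FPKM of 9 members in each library (points) with the group mean and SD (bars), in KO CD62Llo, HET CD62Llo, KO CD62Lhi and HET CD62Lhi Tregs. Cd3g, Zap70, Malt1, Nfatc1, Ptpn22 and Sla are higher in the CD62Llo groups, Txk and Dgka are lower there, and Cd247 is near 200 FPKM in every group.

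Of the 7 adaptors, Sh2d1a, Lcp2 and Sh2d2a rose and Grap2 fell in both genotypes. Sh2d1a, which encodes SAP, the adaptor of SLAM family receptors, read 96.3, 129.8 and 93.7 FPKM in KO CD62Llo and 141, 155 and 158 FPKM in HET CD62Llo Tregs. Its CD62Lhi levels were 49.2, 62.04 and 53.4 FPKM in KO and 59.6 and 69.7 FPKM in HET. The CD62Llo and CD62Lhi libraries were far apart, and the change was 0.94 ± 0.13 in KO (adjusted p = 0.00149) and 1.22 ± 0.15 in HET (adjusted p = 0.000327). Lcp2, the SLP-76 scaffold, read 108, 123 and 102 FPKM in KO CD62Llo and 132, 117 and 120.3 FPKM in HET CD62Llo Tregs. In CD62Lhi Tregs it stood at 86.6, 89.9 and 78.8 FPKM in KO and 94.6 and 82.5 FPKM in HET. Its fractions were apart in both genotypes, with a change of 0.38 ± 0.088 in KO (adjusted p = 0.0175) and 0.47 ± 0.098 in HET (adjusted p = 0.00591). Sh2d2a, an adaptor that binds Lck, read 52.4, 63.4 and 59.3 FPKM in KO CD62Llo and 65.02, 67.96 and 71.7 FPKM in HET CD62Llo Tregs. For CD62Lhi Tregs the values were 47.99, 49.2 and 47.9 FPKM in KO and 49.8 and 51.1 FPKM in HET. It too was higher in every CD62Llo library, by 0.26 ± 0.068 in KO (adjusted p = 0.0277) and 0.43 ± 0.076 in HET (adjusted p = 0.00262). Grap2, which encodes Gads, the bridge between LAT and SLP-76, moved in the opposite direction to its partner Lcp2 and read 79.6, 69.1 and 75.8 FPKM in KO CD62Llo and 66.1, 58.8 and 54.99 FPKM in HET CD62Llo Tregs. The CD62Lhi libraries stood at 99.03, 93.4 and 94.6 FPKM in KO and 93.1 and 94.8 FPKM in HET. Its CD62Llo libraries were all below its CD62Lhi libraries, with a change of -0.35 ± 0.073 in KO (adjusted p = 0.0106) and -0.64 ± 0.082 in HET (adjusted p = 0.000431). Themis read 12.9, 13.8 and 12.1 FPKM in KO CD62Llo and 10.5, 8.57 and 9.20 FPKM in HET CD62Llo Tregs. CD62Lhi Tregs had 13.5, 15.2 and 13.1 FPKM in KO and 12.3 and 12.5 FPKM in HET. The fractions overlapped in KO and were apart in HET. Themis fell in HET, with a change of -0.36 ± 0.092 (adjusted p = 0.0158), whereas its KO change was -0.096 ± 0.082 (adjusted p = 0.486). Lat and Nck1, an adaptor to the actin machinery, did not pass the test in either genotype. Lat changed by 0.11 ± 0.12 in KO and -0.079 ± 0.14 in HET, and Nck1 by -0.012 ± 0.074 in KO and 0.16 ± 0.083 in HET. The HET call of Lcp2 was lost without HET CD62Lhi replicate 2 and that of Themis without HET CD62Lhi replicate 1 or 2. In KO, the call of Lcp2 was lost without KO CD62Llo replicate 2 or KO CD62Lhi replicate 3, and that of Sh2d2a when KO CD62Llo replicate 2 or 3 or any KO CD62Lhi library was left out.

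Among the 7 downstream enzymes and exchange factors, Malt1 and Bcl10 rose and Prkcq and Rasgrp1 fell in both genotypes. Malt1, the paracaspase that carries the signal to NF-kappaB, read 26.6, 28.9 and 27.2 FPKM in KO CD62Llo and 35.7, 50.4 and 39.8 FPKM in HET CD62Llo Tregs. Its CD62Lhi levels were 18.9, 20.7 and 21.3 FPKM in KO and 19.2 and 18.2 FPKM in HET. The CD62Llo libraries exceeded the CD62Lhi libraries in both genotypes, and the HET CD62Llo libraries exceeded the KO CD62Llo ones. Its change was 0.43 ± 0.11 in KO (adjusted p = 0.0255) and 1.11 ± 0.12 in HET (adjusted p = 0.000176). Bcl10, its partner in the CBM complex, read 33.1, 38.2 and 32.4 FPKM in KO CD62Llo and 37.6, 37.1 and 36.6 FPKM in HET CD62Llo Tregs. In CD62Lhi Tregs it stood at 30.8, 29.3 and 28.1 FPKM in KO and 31.01 and 31.6 FPKM in HET. Its fractions did not overlap, and the change was 0.23 ± 0.064 in KO (adjusted p = 0.0419) and 0.24 ± 0.072 in HET (adjusted p = 0.0339). Prkcq, which encodes protein kinase C theta, read 102, 105 and 107 FPKM in KO CD62Llo and 97.8, 101 and 95.97 FPKM in HET CD62Llo Tregs. For CD62Lhi Tregs the values were 125, 134 and 118 FPKM in KO and 126 and 129 FPKM in HET. All of its CD62Llo libraries were lower than the CD62Lhi ones, with a change of -0.26 ± 0.053 in KO (adjusted p = 0.00869) and -0.37 ± 0.059 in HET (adjusted p = 0.00145). Rasgrp1, the exchange factor that turns diacylglycerol into Ras activation, read 64.3, 66.2 and 69.7 FPKM in KO CD62Llo and 57.4, 60.95 and 63.3 FPKM in HET CD62Llo Tregs. The CD62Lhi libraries stood at 77.6, 82.4 and 81.7 FPKM in KO and 73.8 and 83.2 FPKM in HET. Its CD62Llo libraries were all lower, with a change of -0.27 ± 0.061 in KO (adjusted p = 0.0151) and -0.37 ± 0.068 in HET (adjusted p = 0.00319). Plcg1, the phospholipase that makes diacylglycerol and inositol trisphosphate, and the exchange factors Vav1 and Sos1 did not pass the test in either genotype. Their changes lay between -0.049 and 0.065 in KO and between -0.13 and 0.11 in HET. The KO call of Bcl10 was lost when any library but KO CD62Llo replicate 3 was left out. Its HET call was lost when any HET library or KO CD62Lhi replicate 2 was left out. The KO call of Malt1 was lost without replicate 1 or 2 of either KO fraction, and with library medians set equal or quantile normalization. That of Rasgrp1 was lost without KO CD62Llo replicate 1 or KO CD62Lhi replicate 2 or 3.

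Nfatc1 had the highest log2 change of the 42 genes in both genotypes. Its product is the NFAT factor whose short form is induced by receptor signals through its own promoter. It read 57.7, 73.2 and 52.2 FPKM in KO CD62Llo and 79.1, 84.01 and 79.3 FPKM in HET CD62Llo Tregs. CD62Lhi Tregs had 28.4, 32.2 and 27.5 FPKM in KO and 30.9 and 32.5 FPKM in HET. No CD62Llo library overlapped a CD62Lhi library, and the change was 1.02 ± 0.11 in KO (adjusted p = 0.000363) and 1.32 ± 0.12 in HET (adjusted p = 7.9e-05). Nfatc2 read 13.03, 15.1 and 15.1 FPKM in KO CD62Llo and 17.3, 15.9 and 15.03 FPKM in HET CD62Llo Tregs. Its CD62Lhi levels were 13.1, 13.2 and 13.02 FPKM in KO and 13.4 and 12.6 FPKM in HET. The fractions overlapped in KO and were apart in HET. Nfatc2 changed by 0.12 ± 0.068 in KO (adjusted p = 0.269) and 0.28 ± 0.077 in HET (adjusted p = 0.0214) and Nfatc3 by -0.067 ± 0.055 in KO (adjusted p = 0.47) and 0.12 ± 0.062 in HET (adjusted p = 0.18). Nfatc1 made up 50.0% to 57.5% of the summed FPKM of the 3 NFAT genes in KO CD62Llo and 57.9% to 58.2% in HET CD62Llo libraries, against 34.9% to 36.9% in KO CD62Lhi and 37.1% to 38.9% in HET CD62Lhi libraries. The HET call of Nfatc2 was lost without HET CD62Llo replicate 1 or HET CD62Lhi replicate 1 or 2.

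Among the phosphatases and adaptors that damp the signal, Ptpn22, Sla and Ubash3b rose in both genotypes. Not all genes that restrain the signal rose, since Dgka, which removes diacylglycerol and is given below, fell in both. Ptpn22, the phosphatase that acts on Lck and ZAP-70 together with the kinase Csk, read 80.9, 105 and 75.8 FPKM in KO CD62Llo and 97.4, 112 and 115 FPKM in HET CD62Llo Tregs. In CD62Lhi Tregs it stood at 45.9, 53.1 and 48.2 FPKM in KO and 48.1 and 46.5 FPKM in HET. The fractions did not overlap in either genotype, and its change was 0.80 ± 0.12 in KO (adjusted p = 0.00173) and 1.17 ± 0.13 in HET (adjusted p = 0.000201). Csk itself did not pass the test in either genotype, nor did Ptpn6, which encodes the phosphatase SHP-1. Csk changed by -0.008 ± 0.076 in KO (adjusted p = 0.958) and -0.10 ± 0.084 in HET (adjusted p = 0.393), and Ptpn6 by -0.13 ± 0.074 in KO (adjusted p = 0.283) and -0.21 ± 0.083 in HET (adjusted p = 0.0939). Ptprc, the CD45 phosphatase that opens Lck, read 317, 337 and 317 FPKM in KO CD62Llo and 309, 314 and 344 FPKM in HET CD62Llo Tregs. For CD62Lhi Tregs the values were 286, 306 and 302 FPKM in KO and 272 and 273 FPKM in HET. The fractions were apart in both genotypes. Ptprc rose in HET by 0.24 ± 0.061 (adjusted p = 0.0171), against a KO change of 0.12 ± 0.055 (adjusted p = 0.188). Its HET call was lost without HET CD62Lhi replicate 1 or 2, with library medians set equal, and with only the groups compared.

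Sla, the Src-like adaptor SLAP that lowers surface receptor and ZAP-70 signalling, read 95.8, 113 and 103 FPKM in KO CD62Llo and 126, 147 and 166 FPKM in HET CD62Llo Tregs. The CD62Lhi libraries stood at 69.05, 77.1 and 79.8 FPKM in KO and 68.1 and 70.9 FPKM in HET. The fractions were apart in both genotypes, and the change was 0.46 ± 0.10 in KO (adjusted p = 0.0144) and 1.05 ± 0.12 in HET (adjusted p = 0.000176). Its KO call was lost without KO CD62Llo replicate 2 or KO CD62Lhi replicate 1. Ubash3b, which encodes the phosphatase Sts-1, read 23.8, 27.9 and 24.4 FPKM in KO CD62Llo and 25.6, 31.9 and 32.5 FPKM in HET CD62Llo Tregs. CD62Lhi Tregs had 15.04, 15.3 and 15.4 FPKM in KO and 15.2 and 15.7 FPKM in HET. The fractions were far apart, and the change was 0.69 ± 0.090 in KO (adjusted p = 0.000949) and 0.91 ± 0.10 in HET (adjusted p = 0.000201). Its relative Ubash3a did not pass the test, with a change of 0.12 ± 0.073 in KO (adjusted p = 0.305) and 0.14 ± 0.081 in HET (adjusted p = 0.251). Ubash3b made up 32.2% to 33.2% of the summed Ubash3a and Ubash3b FPKM in KO CD62Llo and 31.0% to 36.7% in HET CD62Llo libraries, against 23.3% to 25.7% in KO CD62Lhi and 22.5% to 23.3% in HET CD62Lhi libraries. Sla2, the second SLAP, read 22.6, 28.5 and 25.6 FPKM in KO CD62Llo and 30.4, 31.6 and 30.97 FPKM in HET CD62Llo Tregs. Its CD62Lhi levels were 23.8, 26.7 and 24.5 FPKM in KO and 25.7 and 25.3 FPKM in HET. The fractions overlapped in KO and were apart in HET. Its change was 0.026 ± 0.077 in KO (adjusted p = 0.867) and 0.27 ± 0.087 in HET (adjusted p = 0.0418), and its HET call was lost in 11 of 21 alternatives. Among these were leaving out any HET library, KO CD62Llo replicate 3 or KO CD62Lhi replicate 1 or 3. The ubiquitin ligases Cbl and Cblb and the surface receptors Cd2, Cd5 and Cd6 did not pass the test in either genotype, and their changes lay between -0.11 and 0.044 in KO and between -0.15 and 0.021 in HET.

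Dgka, a kinase that removes diacylglycerol and is known to be low in activated T cells, read 415, 370.4 and 372 FPKM in KO CD62Llo and 331, 307 and 310.4 FPKM in HET CD62Llo Tregs. In CD62Lhi Tregs it stood at 502, 495 and 439 FPKM in KO and 473 and 449 FPKM in HET. Every CD62Llo library was below every CD62Lhi library, with a change of -0.31 ± 0.069 in KO (adjusted p = 0.0146) and -0.54 ± 0.077 in HET (adjusted p = 0.000801). Dgkz, which encodes the other diacylglycerol kinase of the list, changed by 0.20 ± 0.084 in KO (adjusted p = 0.138) and 0.023 ± 0.094 in HET (adjusted p = 0.877). With the replicate number as a block, Dgkz was called higher in KO CD62Llo than in KO CD62Lhi Tregs. Dgkz made up 32.6% to 35.9% of the summed FPKM of both kinases in KO CD62Llo and 35.8% to 37.5% in HET CD62Llo libraries, against 26.0% to 26.7% in KO CD62Lhi and 27.9% to 28.5% in HET CD62Lhi libraries. The KO call of Dgka was lost without KO CD62Llo replicate 2 or KO CD62Lhi replicate 1 or 2.

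**Figure D4:**
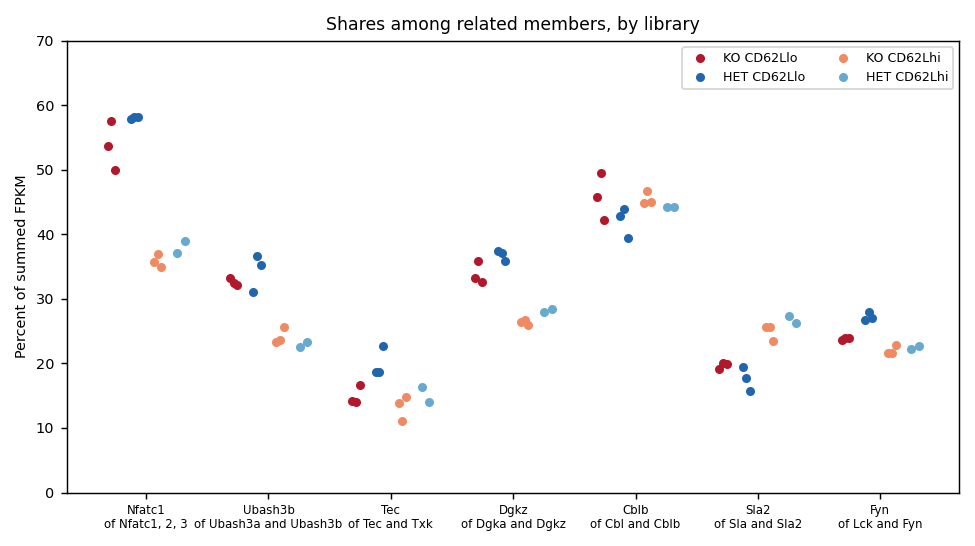
Share of a member in the summed FPKM of itself and its relatives, in percent, in each library of KO CD62Llo, HET CD62Llo, KO CD62Lhi and HET CD62Lhi Tregs. Nfatc1 holds 50.0% to 58.2% of the NFAT sum in CD62Llo and 34.9% to 38.9% in CD62Lhi libraries. The Cblb shares overlap between the fractions in KO, whereas in HET they are 39.4% to 43.9% in CD62Llo and 44.2% in CD62Lhi libraries.

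The size of the fraction difference was then set against genotype. In all 20 members called in both genotypes the absolute log2 change was larger in HET, as it was for 1478 of the 1666 genes called in both over the whole table (88.7%). The difference between the 2 changes was itself called for 0 of the 42 members, and for 1 of the 11431 genes tested (0.00875%); 5 members had an unadjusted p under 0.05, as had 868 of all genes. Txk had a KO change minus HET change of 0.53 ± 0.12 (adjusted p = 0.24), Malt1 of -0.68 ± 0.16 (adjusted p = 0.277) and Sla of -0.59 ± 0.15 (adjusted p = 0.314). The counts behind this comparison rest in part on single libraries: 6 members rose in KO without KO CD62Llo replicate 2, and 7, 9 and 8 without KO CD62Lhi replicate 1, 2 and 3, while 3 fell without KO CD62Lhi replicate 2. In HET, 11 rose without HET CD62Lhi replicate 2.

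KO and HET Tregs were next compared within each fraction. In CD62Lhi Tregs 0 of the 42 members passed the limma test and 0 had an unadjusted p under 0.05, and over all genes 0 of 11431 were called, with 328 at an unadjusted p under 0.05. The log2 changes of the members ran from -0.23 for Sh2d1a to 0.15 for Themis. The KO libraries were all above the HET libraries in 3 members (7.83% of all genes) and all below in 3 (14.4%).

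In CD62Llo Tregs, Txk, Themis and Grap2 were higher and Malt1 and Sla lower in KO than in HET Tregs. These were 3 and 2 of 42 members, where 1.36% of all genes were higher and 3.25% lower (4.60% together), and 19 members had an unadjusted p under 0.05, as had 2160 of all 11431 genes. The KO libraries were all above the HET libraries in 6 members (6.55% of all genes) and all below in 12 (13.7%). Txk averaged 29.9 ± 1.46 FPKM in KO and 18.9 ± 0.865 FPKM in HET CD62Llo Tregs (SD, n = 3 each), a log2 change of 0.63 ± 0.078 (adjusted p = 0.00386), and was called under all 21 alternatives. Themis read 12.9, 13.8 and 12.1 FPKM in KO and 10.5, 8.57 and 9.20 FPKM in HET CD62Llo libraries, with no overlap and a change of 0.42 ± 0.082 (adjusted p = 0.022). Grap2 changed by 0.32 ± 0.073 (adjusted p = 0.0427). Malt1 averaged 27.6 ± 1.22 FPKM in KO and 41.95 ± 7.57 FPKM in HET CD62Llo Tregs (SD, n = 3 each), a change of -0.57 ± 0.11 (adjusted p = 0.0188). Sla changed by -0.48 ± 0.10 (adjusted p = 0.0311). The summed Treg and stromal markers given above did not overlap between these groups either, and their part was not tested. The stromal sum was nearly all Pecam1, at 50.6 to 55.7 FPKM in KO and 36.8 to 40.3 FPKM in HET CD62Llo libraries. No other marker of that list exceeded 2.98 FPKM. Of the Treg markers, Ctla4, Ikzf2, Tnfrsf18 and Cd4 were lower in KO without overlap, with Ctla4 at 128 to 154 FPKM in KO and 168 to 262 FPKM in HET. Foxp3 (75.9 to 96.8 FPKM in KO, 84.0 to 95.6 FPKM in HET), Il2ra (110 to 138 FPKM in KO, 108 to 135 FPKM in HET) and Cd3e overlapped.

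Of these 5 genes, Txk and Grap2 fell in CD62Llo against CD62Lhi Tregs of both genotypes and Themis fell in HET, while Malt1 and Sla rose in both. The KO against HET comparison shares the CD62Llo libraries with the fraction comparisons, so these values stand side by side and are not independent. Dgka had a change of 0.28 ± 0.069 (adjusted p = 0.0515), Sh2d1a of -0.52 ± 0.13 (adjusted p = 0.0618) and Nfatc1 of -0.41 ± 0.11 (adjusted p = 0.0731), none of which passed. Same-numbered KO and HET CD62Llo libraries deviated together, and with the replicate number as a block 4 members were higher and 7 lower in KO. The block added Dgka (0.28, adjusted p = 0.0178) on the higher side and Cd4 (-0.23, adjusted p = 0.0302), Fyn (-0.20, adjusted p = 0.0341), Zap70 (-0.22, adjusted p = 0.03), Sh2d1a (-0.52, adjusted p = 0.0151) and Nfatc1 (-0.41, adjusted p = 0.0205) on the lower side. Fitted on the CD62Llo libraries alone, 1 member was higher and 0 were lower. The calls of Malt1 and Sla were lost without KO CD62Llo replicate 1 or 3. That of Sla was lost as well without HET CD62Llo replicate 2 or 3, KO CD62Lhi replicate 2 or HET CD62Lhi replicate 1 or 2. The call of Themis was lost without KO CD62Llo replicate 1 or 2 or HET CD62Llo replicate 2 or 3. That of Grap2 was lost in 12 of 21 alternatives, and stayed only without KO CD62Llo replicate 2 or HET CD62Llo replicate 1 among those that leave out a library. Without KO CD62Llo replicate 2, 9 members were lower in KO, and without KO CD62Llo replicate 1 or 3, 0 were.

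**Figure D5:**
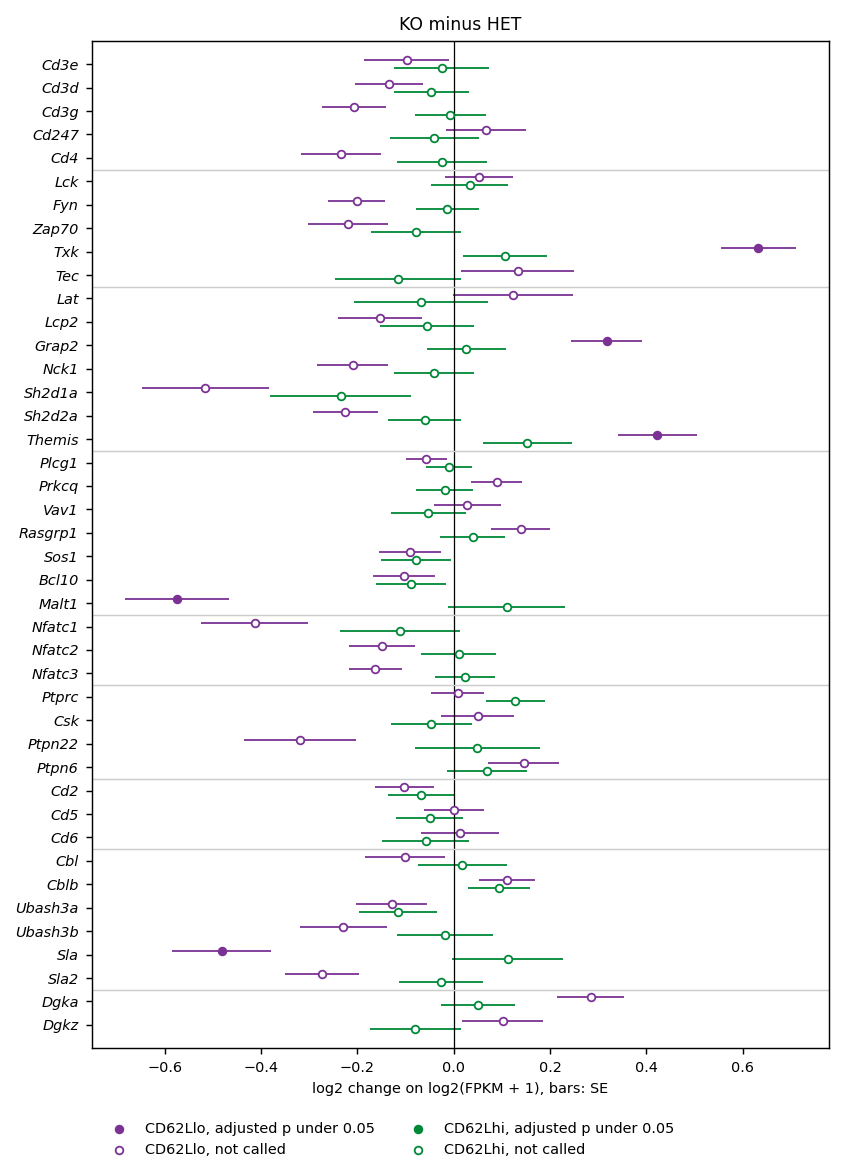
Log2 change of each member in KO against HET Tregs, on log2(FPKM + 1), in the CD62Llo fraction (purple, upper point) and the CD62Lhi fraction (green, lower point); bars are SE and filled points have an adjusted p under 0.05. Txk, Grap2 and Themis lie to the right and Malt1 and Sla to the left in CD62Llo Tregs, and no point is filled in CD62Lhi Tregs.

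The rest of the pathway was read from a longer list. Of 80 further pathway genes, 77 were tested. In CD62Llo against CD62Lhi Tregs 16 rose and 8 fell in KO (11.9% and 4.26% of all genes) and 20 rose and 16 fell in HET (18.8% and 8.88% of all genes). These counts include Rnf128, which rose, and Rasgrp3, which fell, in both genotypes. Rnf128 reached 1 FPKM only in HET CD62Llo libraries and Rasgrp3 only in CD62Lhi libraries, so the filter favoured their calls. In KO, 10 rose without KO CD62Lhi replicate 1, and 16 fell with library medians set equal. In HET, 13 rose and 10 fell without HET CD62Lhi replicate 1. Ptprj, the receptor phosphatase CD148, changed by 0.99 ± 0.12 in KO (adjusted p = 0.000701) and 1.29 ± 0.14 in HET (adjusted p = 0.00014), and Lax1, an inhibitory transmembrane adaptor, by 0.93 ± 0.098 in KO (adjusted p = 0.000313) and 1.20 ± 0.11 in HET (adjusted p = 6.8e-05). Cd8a changed by -1.11 ± 0.20 in KO (adjusted p = 0.00544) and -1.51 ± 0.23 in HET (adjusted p = 0.00104) and Cd8b1 by -1.13 ± 0.15 in KO (adjusted p = 0.00125) and -1.48 ± 0.17 in HET (adjusted p = 0.000267); both encode the CD8 co-receptor and both are in the CD8 T and NK marker list given above. Rasgrp2, a relative of Rasgrp1, fell in HET by 1.47 on the log2 scale, and its KO change was -0.76 ± 0.13 (adjusted p = 0.0036).

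Of 10 genes that receptor signals induce, 7 rose in KO (11.9% of all genes) and 7 in HET CD62Llo Tregs (18.8%), with median log2 changes of 0.59 in KO and 0.71 in HET. The 7 were Nr4a1, Nr4a2, Nr4a3, Egr2, Egr3, Tnfrsf9 and Irf4 in both genotypes. Nr4a2 reached 1 FPKM only in CD62Llo libraries and did not exceed 0.594 FPKM in CD62Lhi libraries, so the filter favoured its rise. Without HET CD62Lhi replicate 1, 4 rose in HET, and Nr4a1, Nr4a3 and Egr3 were no longer called. In KO the call of Nr4a1 was lost in 8 of 21 alternatives and that of Nr4a2 in 7 of 20. Irf4, a factor needed by effector Tregs, changed by 1.05 ± 0.18 in KO (adjusted p = 0.00467) and 1.35 ± 0.21 in HET (adjusted p = 0.00116), and Egr2 by 1.07 ± 0.13 in KO (adjusted p = 0.000701) and 1.08 ± 0.15 in HET (adjusted p = 0.000633). Myc fell in HET, with a change of -0.57 ± 0.085 (adjusted p = 0.00103), and Egr1 and Cd69 did not pass the test in either genotype. Between KO and HET CD62Llo Tregs, 4 of the 77 pathway genes were higher and 4 lower (1.36% and 3.25% of all genes). With the replicate number as a block 7 were lower. Fitted on the CD62Llo libraries alone, 0 were higher and 1 lower, and leaving out 1 library gave 0 to 4 higher and 1 to 7 lower. The higher count was 0 without KO CD62Llo replicate 1 or HET CD62Llo replicate 2, 1 without KO CD62Llo replicate 3 or KO CD62Lhi replicate 1 or 2, and 2 without HET CD62Llo replicate 3 or HET CD62Lhi replicate 1 or 2. The lower count was 1 without KO CD62Llo replicate 3 or HET CD62Llo replicate 2 and 7 without KO CD62Llo replicate 2. Rasgrp2 changed by 0.77 ± 0.13 (adjusted p = 0.012), Rasa3, a Ras GTPase activating protein, by 0.45 ± 0.095 (adjusted p = 0.0304), Dok1, a docking adaptor, by -0.62 ± 0.065 (adjusted p = 0.00244) and the receptor Cd226 by -0.42 ± 0.077 (adjusted p = 0.018). Dok1 was called in all 21 alternatives. The call of Rasa3 was lost in 8 of them, and those of Rasgrp2 and Cd226 in 3 each. Of the 10 targets, Myc was higher in KO, by 0.35 ± 0.076 (adjusted p = 0.0342). That call was lost on the CD62Llo libraries alone and without any 1 library other than KO CD62Llo replicate 2 or HET CD62Llo replicate 3.

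The genes lie on many chromosomes, and all 42 loci in the files overlapped the annotated locus of the same name on mm10 (GRCm38). Txk lies at chr5:72695978-72752777 and Tec at chr5:72755716-72868483, both on the minus strand. Cd3g lies at chr9:44969572-44980431 on the minus strand and Cd3d at chr9:44981786-44987339 on the plus strand, with Cd3e at chr9:44998740-45009627 on the minus strand 11400 bases further. For 13 members an annotated exon overlaps another gene, among them Cd3e, Lcp2, Sh2d1a, Themis, Sla2 and Dgka. Whether the kit kept the strand is not stated, so reads of both genes cannot be told apart there. In the authors' deposited group table the sign of the change matched for 20 of 20 members called in KO and 24 of 24 called in HET between the fractions, and for 5 of 5 called between KO and HET CD62Llo Tregs. That table comes from the same experiment, so it is no independent check. Its member values were 1.08 to 1.51 times the means of the libraries. For every member this ratio was higher in CD62Lhi than in CD62Llo Tregs of either genotype, so rises are smaller and falls larger there. Bcl10 in HET stood at 46.2 FPKM in CD62Llo and 42.5 FPKM in CD62Lhi Tregs in that table. Ptprc in KO stood at 424.8 and 423.7 FPKM.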

How the data were processed

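Poly(A) RNA of sorted Tregs was sequenced as single-end reads. Per the submitters' processing notes, CASAVA 1.8.2, FastQC, TopHat and Cufflinks 2.1.1 were used with mm10; the authors deposited FPKM per gene entry for each library and FPKM per group. Each library held 23846 entries for 23352 symbols, joined by identifier and locus because their order differs between libraries, and entries of 1 symbol were summed. FPKM are not counts, so limma 3.58.1 (R 4.3.3) was run on log2(FPKM + 1) with 4 group means over 11 libraries, genes with at least 1 FPKM in at least 2 libraries, a mean-variance trend and Benjamini-Hochberg adjustment over 11431 genes at 0.05; it was tested on simulated data. Fold changes on this scale understate the change of low genes. All 42 members are described, those called in any comparison with values, and of the other pathway genes up to the 4 called with the largest change. The members and the lists of pathway genes, targets and markers were chosen with earlier results of these data known. Depth was estimated from what 1 read is worth in FPKM. Replicate numbers come from the labels. In CD62Llo Tregs, KO and HET libraries of the same number correlated in their deviations from the group means (r = 0.165, 0.153 and 0.148). Pairs of different number gave -0.237 to 0.084. Between KO CD62Llo and CD62Lhi libraries r was 0.131, 0.068 and 0.178 at the same number and -0.178 to 0.086 otherwise. Between the HET fractions it was 0.135 and 0.073 at the same number and -0.135 to 0.06 otherwise. With 2 HET CD62Lhi libraries their deviations mirror each other. Whether the numbers pair the fractions is thus not settled. The 21 alternatives changed the pseudocount, filter, scaling, model or entry, or left out 1 library.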

Additional observations from a re-analysis of the deposited data

How the results depend on the processing

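No result named for a gene reversed its direction past the threshold in any of the 21 alternatives; sign changes of uncalled genes were not counted. Of the members called, 9 of 20 in KO and 17 of 24 in HET kept their fraction call in every alternative, as did 1 of 5 (Txk) between KO and HET CD62Llo Tregs. Of the members not called, 2 in KO, 6 in HET and 11 between KO and HET CD62Llo Tregs were called in some alternative. With library medians set equal, 8 members rose in KO, 12 fell in HET, 16 other pathway genes and 1 target fell in KO, and 987 genes fell in KO and 1862 in HET. Quantile normalization gave 1431 genes higher and 1638 lower in HET, 797 lower in KO, and 237 higher in KO than HET CD62Llo Tregs. With only the groups compared, KO against HET CD62Llo Tregs gave 25 genes higher and 84 lower, 1 member higher and 0 lower, 0 other pathway genes higher and 1 lower, and 0 targets higher; KO against HET CD62Lhi Tregs gave 4 genes higher and 1 lower. At FPKM of at least 5, 244 genes were lower in KO than HET CD62Llo Tregs. The interaction gave 3 genes lower with no filter and 2 with no trend. The replicate block gave 7 members and 7 other pathway genes lower in KO than HET CD62Llo Tregs and 1 target lower in the KO fraction comparison; it moved no other count by over 1.5 times. In the fraction comparisons it is not settled whether the numbers pair the samples. There the block added, among the members, Dgkz in KO (adjusted p = 0.0165) and Cd3d in HET (adjusted p = 0.0336). Among the targets it lost Nr4a1 in KO (adjusted p = 0.0501).

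Leaving out each library in turn gave these ranges. For CD62Llo against CD62Lhi in KO, the counts were 908 to 1437 all tested genes higher, 260 to 539 all tested genes lower, 6 to 13 members higher, 3 to 6 members lower, 10 to 16 other pathway genes higher, 0 to 1 targets lower. For CD62Llo against CD62Lhi in HET, the counts were 1360 to 2301 all tested genes higher, 560 to 1106 all tested genes lower, 11 to 18 members higher, 13 to 23 other pathway genes higher, 10 to 16 other pathway genes lower, 4 to 8 targets higher. For KO against HET in CD62Lhi, the counts were 0 to 5 all tested genes higher, 0 to 1 all tested genes lower. For KO against HET in CD62Llo, the counts were 43 to 173 all tested genes higher, 134 to 469 all tested genes lower, 1 to 3 members higher, 0 to 9 members lower, 0 to 4 other pathway genes higher, 1 to 7 other pathway genes lower, 0 to 1 targets higher, 0 to 1 targets lower. For the interaction of genotype and fraction, the counts were 1 to 3 all tested genes higher, 0 to 4 all tested genes lower.

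Causes were not tested. The interaction cannot be fitted on 2 groups. Only 2 HET CD62Lhi libraries and a depth of about 12100000 to 48500000 reads limit the precision.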
